A study of Nannochloropsis oceanica with 8 samples.

Results

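Mid-level Kbu peaks with a strongly reduced Kbu level at low CO2 were examined in the oil-producing marine microalga *Nannochloropsis oceanica* IMET1. The level of a peak in a library was the deposited ChIP pileup divided by the lowest background (lambda) value of that library, so a level of 1 is the lowest background. The peaks were selected on measured values. A peak was taken when it was at least 600 and under 1500 bp wide, when its Kbu level was at least 2 and under 5 in both high-CO2 libraries, and when its mean low-CO2 level was at most 0.55 times its mean high-CO2 level. This gave 520 of 6185 peaks (8.41%), called the reduced peaks here. They were 11.9% of the 4356 peaks that met the width and high-CO2 conditions, called mid-level peaks, and the other 3836 mid-level peaks serve as the comparison. Kbu in all 4 Kbu libraries chose the reduced peaks, so every Kbu value below is a description without a test.

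Cells of the strain IMET1 were grown in 6 column reactors at constant light intensity, aerated with 5% CO2 for a first hour, and then either switched to 0.04% CO2 (low CO2) or kept at 5% CO2 (high CO2, the control condition), with 3 reactors each. They were sampled 24 h later for ChIP-seq with an antibody against Kbu or against H3K9me2. The 4 groups, each of 2 libraries, were Kbu at low CO2, Kbu at high CO2, H3K9me2 at low CO2 and H3K9me2 at high CO2. The labels do not tie libraries to separate cultures, so the spread between libraries, which all p-values below rest on, may be technical. The labels also give each H3K9me2 library an antibody lot number of its own, so lot and CO2 level cannot be told apart for that mark.

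Kbu is the usual abbreviation of lysine butyrylation, an acyl mark related to acetylation. In animals and plants, histone acylations of this kind are found mainly at active promoters and draw on the cell's acyl-CoA pools, which link them to carbon metabolism. Dimethylation of lysine 9 on histone H3 (H3K9me2) marks silent genes and repeats in many eukaryotes. The peaks carry no gene names, and genes at them are not analysed here. They are given by position in the coordinates of the deposited tables, and no source used here names the genome build.

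At low CO2 the reduced peaks kept a Kbu level below 2 in most cases, while most other mid-level peaks stayed above 2. Over the 520 reduced peaks the median Kbu level was 1.81 and 1.86 in the low-CO2 libraries (mean 1.84 ± 0.034, SD, n = 2), against 3.80 and 3.87 in the high-CO2 libraries (3.84 ± 0.049, SD, n = 2). Over the other mid-level peaks it was 2.60 and 2.68 at low CO2 and 3.69 in both libraries at high CO2. Both kinds of peak had similar levels at high CO2 and separated at low CO2, in both libraries of each. The rule used these same libraries and favours this pattern. Both low-CO2 libraries were at a level of at least 2 in 146 reduced peaks (28.1%), against 3324 other mid-level peaks (86.7%). Both were under 1.5 in 96 reduced peaks and under 1 in 4.

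**Figure D1:**
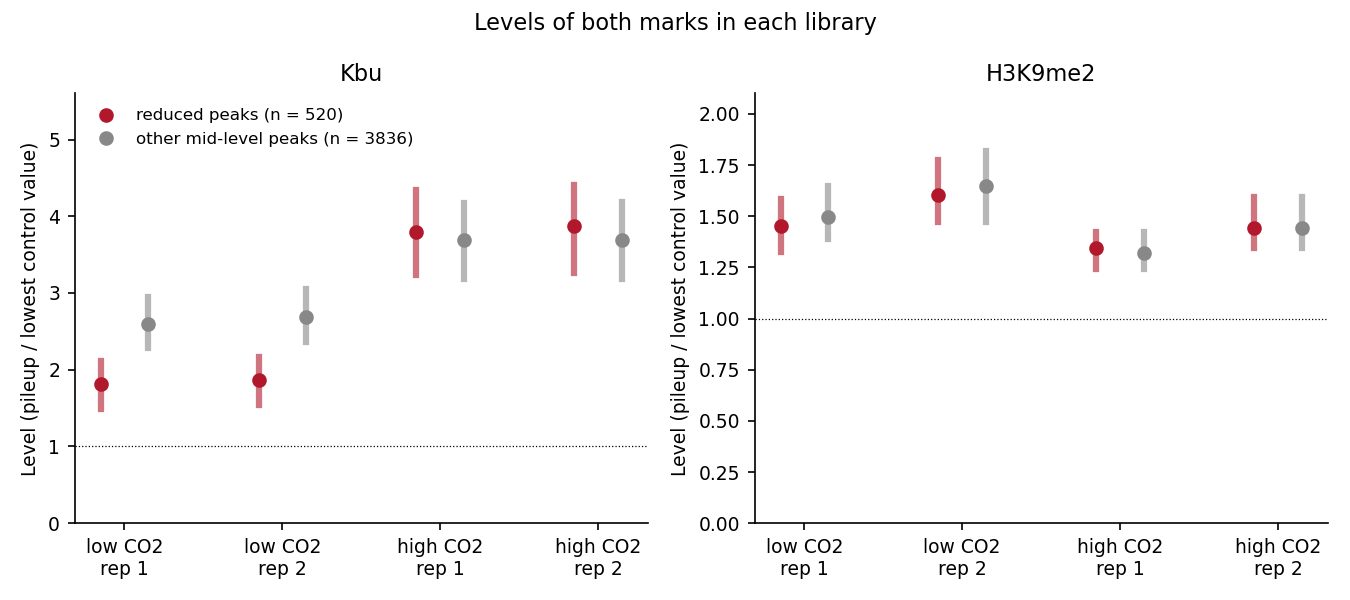
Kbu (left) and H3K9me2 (right) level in each of the 4 libraries of a mark, with low CO2 before high CO2; points are medians over peaks, bars the quartiles, and the dotted line a level of 1. Kbu medians of the reduced peaks (red) are 1.81 and 1.86 at low CO2 and 3.80 and 3.87 at high CO2, while their H3K9me2 medians lie between 1.35 and 1.603 in every library, close to those of the other mid-level peaks (grey).

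The ratio of low-CO2 to high-CO2 level had a median of 0.498 over the reduced peaks (quartiles 0.445 and 0.527, lowest 0.285), against 0.717 over the other mid-level peaks and 0.693 over all peaks. It was above 0.45 in 380 reduced peaks and at most 0.4 in 46, so most lay close to the limit of the rule. The 3 peaks just inside it were peak5189, peak941 and peak5462, with ratios of 0.5489, 0.5489 and 0.5495. The 3 just outside were peak2361, peak14 and peak5573, at 0.5501 each. The ratio stayed at or under 0.55 for the higher low-CO2 library set over the lower high-CO2 library in 330 of the 520 peaks.

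For Kbu the depth at these peaks was lower at low CO2. The pileup at the median reduced peak was worth 120 and 75 reads in the low-CO2 Kbu libraries and 836 and 617 reads in the high-CO2 ones, which gives counting errors of 9.13% and 11.5% at low CO2 and of 3.46% and 4.03% at high CO2. For H3K9me2 it was worth 67 and 37 reads at low CO2 and 53 and 29 at high CO2, with counting errors of 12.2% to 18.6%. The lowest background was 11.6 and 11.3 in the low-CO2 Kbu libraries and 23.4 and 23.1 in the high-CO2 ones. Every Kbu ratio rests on these values: with the 1st percentile of the background in their place, 1149 peaks met the rule.

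The 6 reduced peaks with the lowest ratio were near the lowest background at low CO2. At peak2217 (chromosome 19, 32382 to 33503) the Kbu level was 1.15 and 1.29 at low CO2, against 4.13 and 4.43 at high CO2, a ratio of 0.285. At peak4036 (chromosome 29, 460243 to 461498) it was 1.12 and 1.24 at low CO2, against 3.75 and 3.94 at high CO2. The next was peak5134 (chromosome 6, 165775 to 166526), with 1.36 and 1.04 at low CO2 and 3.96 and 3.83 at high CO2. In all 3 the low-CO2 libraries were within 0.4 of the lowest background and the groups were far apart. The others were peak2928 (chromosome 21, 67105 to 68299), peak1994 (chromosome 17, 598378 to 599660) and peak2215 (chromosome 19, 20469 to 21111), with ratios of 0.311, 0.312 and 0.321. H3K9me2 passed the test described below at none of these 6 peaks. It stood at 1.29 to 1.71 at low CO2 and 1.31 to 1.53 at high CO2 (means of 2 libraries).

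The local background differed between the CO2 levels at the reduced peaks as it did elsewhere. The deposited background at the median reduced peak was 3.43 ± 0.036 times the library's lowest at low CO2 for Kbu and 1.30 ± 0.046 times at high CO2 (SD, n = 2 each), against 3.53 ± 0.023 and 1.30 ± 0.041 over all peaks. At low CO2 the mean background was above the mean Kbu level at all 520 reduced peaks, against 3429 (89.4%) of the other mid-level peaks. The rule takes peaks with a low Kbu level at low CO2, which favours this difference. The median pileup over local background was 0.532 ± 0.016 at low CO2 and 2.90 ± 0.11 at high CO2 (SD, n = 2 each). The median reduced peak was thus below its local background at low CO2. So were the median other mid-level peak (0.754 at low and 2.82 at high CO2) and the median of all peaks (0.733 and 2.84). Background ranged widely among the reduced peaks. The lowest low-CO2 values, 1.48 and 1.61 times, were at peak5721 (chromosome 8, 351380 to 352100) and peak4482 (chromosome 4, 80210 to 81109), and the highest, 7.17 and 6.81 times, at peak1734 (chromosome 16, 326010 to 327268) and peak1473 (chromosome 14, 982961 to 984435). Their Kbu ratios, in the same order, were 0.458, 0.498, 0.478 and 0.435. Reduced peaks were 13.9% of the mid-level peaks with a low-CO2 background of 2 to 3 times, 9.57% of those at 4 to 5 times and 16.6% of those at 5 to 6 times. The part of the background in the choice of the peaks was not tested.

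Set against the typical peak, the Kbu difference was smaller. With each library scaled to 1 geometric mean, the median ratio was 0.707 over the reduced peaks and 0.983 over all peaks. The authors' deposited table gives a median log2 fold change, high over low CO2, of 0.45 for Kbu at the reduced peaks and of -0.08 over all peaks. The authors' deposited table marks as gain (higher at high CO2) 38 of the 520, beside 2.93% of all peaks. It marks 0 of them as loss, beside 15.6% of all peaks. Both counts follow from the choice of peaks. Of the 520, 105 have an adjusted p in the authors' deposited table and 0 are under 0.05, beside 25.3% of the 2468 peaks that have one.

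H3K9me2, which the choice of peaks did not use, stayed low at the reduced peaks. The median H3K9me2 level over the 520 was 1.45 and 1.603 in the low-CO2 libraries (1.53 ± 0.11, SD, n = 2), against 1.35 and 1.44 in the high-CO2 libraries (1.39 ± 0.069, SD, n = 2). The low-CO2 medians were both above the high-CO2 ones, but the spread between replicates was about as large as the difference, and 2 libraries against 2 cannot give an exact permutation p below 0.333. A level of at least 2 in both low-CO2 libraries was reached at 3 reduced peaks (0.577%), against 120 other mid-level peaks (3.13%) and 5.13% of all peaks. In both high-CO2 libraries it was reached at 0 reduced peaks, against 1 other mid-level peak and 0.162% of all peaks. The H3K9me2 background at the median reduced peak was 3.43 ± 0.020 times its lowest at low CO2 and 1.26 ± 0.020 times at high CO2 (SD, n = 2 each), and its part in the H3K9me2 values was not tested.

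Each peak was then tested for an H3K9me2 difference between low and high CO2 over all 6185 peaks (limma on log2 of the level plus 0.1, Benjamini-Hochberg adjusted p under 0.05, two-sided, n = 2 per group). H3K9me2 rose at 6 of the 520 reduced peaks (1.15%), where 4.92% of all peaks and 3.21% of the other mid-level peaks rose. It fell at 0 of them by limma, where 0% of all peaks fell, and 1 reduced peak was lower at an unadjusted p under 0.05, as were 0.34% of all peaks. At that unadjusted level 52 reduced peaks (10.0%) were higher, beside 18.7% of all peaks. The median log2 change was 0.11 over the reduced peaks, against 0.17 over the other mid-level peaks and over all peaks. With each library scaled to 1 geometric mean these medians were -0.08, -0.02 and -0.02, so the direction of the H3K9me2 median depends on the scaling. The reduced peaks stayed below all peaks under each of the 11 alternatives tried. Among these, the fit with replicate number as a block cannot change the medians. Both low-CO2 libraries were above both high-CO2 libraries at 174 reduced peaks (33.5%), where 45.9% of all peaks had this pattern, and below them at 31 (5.96%), where 3.78% of all peaks did. With the pileup scaled to 1 geometric mean, 3 reduced peaks (0.577%) passed as higher and 11 (2.12%) as lower, beside 3.98% and 1.02% of all peaks. The authors' deposited table marks H3K9me2 as loss (lower at high CO2) at 12 of the 520 (2.31%), beside 7.73% of all peaks, with an adjusted p under 0.05 at 4 of the 26 that have one (15.4%), beside 28.8% of the 1029 peaks that have one.

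The 6 peaks where H3K9me2 rose had H3K9me2 levels under 1.5 in both high-CO2 libraries. The rise depended on the quantity compared. With the pileup set over the local background, 4 of the 6 passed as lower and 0 as higher. With each library scaled to 1 geometric mean, 3 of the 6 still passed as higher. Mean background at these peaks in the Kbu libraries was 2.38 (peak4058) to 5.98 (peak4412) times the lowest at low CO2. At high CO2 it was 1.27 (peak3729) to 1.48 (peak4993) times. The part of the H3K9me2 background in these 6 rises was not tested. At peak4058 (chromosome 3, 336 to 1071), the first peak of its chromosome, the H3K9me2 level was 2.52 and 2.30 at low CO2, against 1.22 and 1.39 at high CO2, or 0.84 higher on the log2 scale (SE 0.17, adjusted p = 0.00438 by limma). Kbu at this peak was 1.69 and 1.89 at low CO2 and 3.28 and 3.29 at high CO2. At peak4993 (chromosome 5, 922937 to 923807) the H3K9me2 level was 2.19 and 2.34 at low CO2, against 1.35 and 1.29 at high CO2, or 0.74 higher on the log2 scale (SE 0.17, adjusted p = 0.0108 by limma). In these 2 peaks H3K9me2 was higher and Kbu lower at low CO2, with no overlap between the CO2 groups. At peak4412 (chromosome 30, 199568 to 200848) H3K9me2 was 1.67 and 2.43 at low CO2 and 1.42 and 1.10 at high CO2 (limma adjusted p = 0.04999). At peak2793 (chromosome 20, 245503 to 246549) it was 1.91 and 2.21 at low CO2 and 1.12 and 1.49 at high CO2 (limma adjusted p = 0.0411). The low-CO2 libraries of these 2 peaks were above the high-CO2 ones but differed among themselves. The other 2, outside the rule for named peaks and given because the count is small, were peak3035 (chromosome 21, 584235 to 584872, log2 change 0.63) and peak3729 (chromosome 27, 2689 to 3496, 0.62), which is the first peak of chromosome 27. Leaving out any 1 H3K9me2 library left none of the 6 past the threshold, and 0 to 22 of all 6185 peaks.

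Among mid-level peaks the H3K9me2 change was larger where more Kbu was kept. Its median log2 change was 0.10 in the 140 reduced peaks with a Kbu ratio up to 0.45 and 0.11 in the 380 above 0.45. It was 0.14 in the 1038 peaks with a ratio from 0.55 to 0.65, 0.18 in the 878 from 0.75 to 0.85, and 0.41 in the 180 with a ratio above 1. H3K9me2 passed as higher at 0.714% and 1.32% of the peaks in the 2 lowest bins and at 21.1% in the highest. The 2 bins of reduced peaks had the lowest medians here, and the medians on either side of the 0.55 limit were close. At high CO2 the median H3K9me2 level was 1.38 to 1.42 in every bin, and the bins separated at low CO2, with medians of 1.51 and 1.53 in the 2 lowest and 1.90 in the highest. On the deposited normalised value the median was 0.06 in the lowest bin, 0.01 from 0.55 to 0.65 and 0.37 above 1, so the order among the lower bins was not kept there. Of 11 alternatives, 6 kept the order of all 7 bins, while all 11 kept that of the 5 bins above 0.55. Both counts include the fit with a replicate block, which cannot change the medians. The low-CO2 Kbu background had medians of 3.43 times its lowest in both bins of reduced peaks, 3.59 and 3.61 in the next 2, and 3.497, 3.32 and 3.28 in the 3 above a ratio of 0.75, and its part in these H3K9me2 values was not tested.

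**Figure D2:**
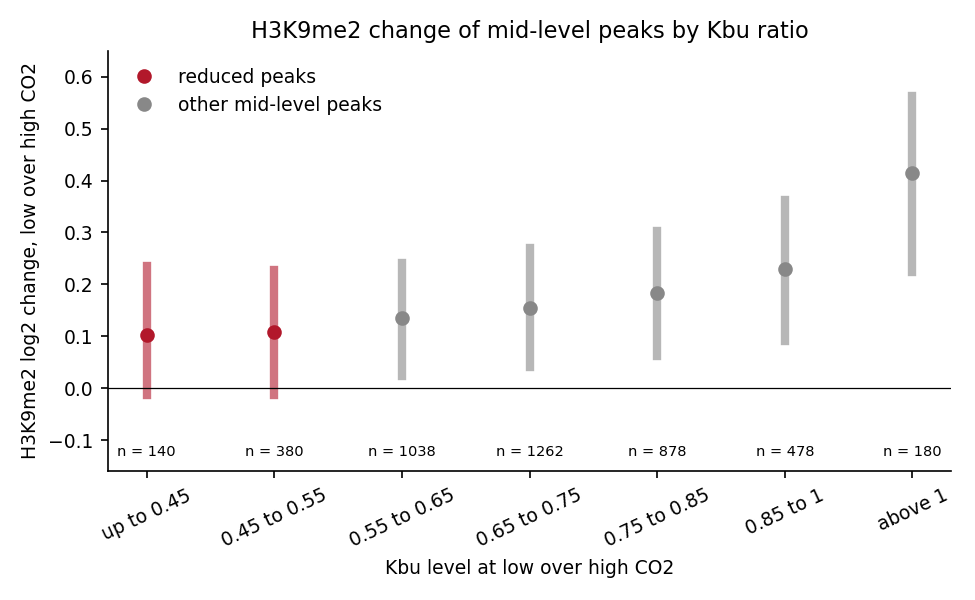
H3K9me2 log2 change of the mid-level peaks (low over high CO2, log2 of the level plus 0.1) in bins of the Kbu ratio (low over high CO2); points are medians, bars the quartiles and n the number of peaks. The median is 0.10 in the lowest bin and 0.41 in the highest, and the 2 bins of reduced peaks (red) are the lowest.

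Some reduced peaks lay next to each other. The peak that followed a reduced peak on its chromosome was itself reduced in 64 of 517 cases (12.4%, 95% exact binomial interval 9.67% to 15.5%). It was reduced in 7.73% of 3828 cases after another mid-level peak and in 8.40% of 6155 cases over all peaks. Neighbouring peaks are not independent, so the interval covers counting error only, and the difference was not tested. The share was higher after reduced peaks than after the other mid-level peaks under all 14 alternatives, but in 5 of them the second share lay inside the interval of the first. These include the share without chromosomes 6 and 30, which was 10.1% (7.54% to 13.2%) after reduced peaks and 7.56% after the others, and that without low-CO2 Kbu library 2, which was 12.1% (9.62% to 14.9%) and 9.74%. Among peaks 2 to 6 places away the share that was reduced was 8.55% to 10.6% around reduced peaks and 7.71% to 8.17% around the other mid-level peaks. The median Kbu ratio of the immediate neighbours was 0.680 around reduced peaks and 0.697 around the others, a small difference. The gap to the next peak was alike, with medians of 3206 bp and 3166.5 bp. Most reduced peaks stood alone: 407 had no reduced neighbour, 76 were in 38 pairs, and 37 were in 11 longer runs, so 113 (21.7%) were in runs, on 25 of the 30 chromosomes.

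The longest run held 5 consecutive peaks near the start of chromosome 19, from 14825 to 33503. From first to last these were peak2213, peak2214, peak2215, peak2216 and peak2217, with ratios of 0.381, 0.440, 0.321, 0.419 and 0.285. Kbu was 1.06 to 1.57 in the low-CO2 libraries across all 5 and 2.80 to 4.43 in the high-CO2 libraries. The peaks on either side, peak2212 and peak2218, had mean Kbu levels of 3.64 and 3.38 at low CO2 and of 5.25 and 5.31 at high CO2, and their ratios were 0.694 and 0.637. The run thus ended at stronger peaks on both sides, which lie above the level limit of the rule. H3K9me2 changes in it were -0.33 to 0.16, and no peak passed the test.

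A run of 4 on chromosome 30, from 307540 to 329797, was bounded by peaks that kept their Kbu. Its peaks peak4436, peak4437, peak4438 and peak4439 had ratios of 0.539, 0.493, 0.358 and 0.402. The strongest contrast was at peak4438 (318184 to 318943), with 1.54 and 1.89 at low CO2 and 4.70 and 4.88 at high CO2. The flanking peak4435 and peak4440 had ratios of 1.10 and 0.923, with mean Kbu levels of 3.65 and 3.20 at low CO2 and 3.32 and 3.46 at high CO2. At peak4435 Kbu was therefore not lower at low CO2, 2683 bp from a peak where the ratio was 0.539. The other run of 4, on chromosome 25 from 473659 to 511481, comprised peak3574, peak3575, peak3576 and peak3577, with ratios of 0.496, 0.512, 0.536 and 0.430, and its flanking peaks were at 0.703 and 0.621. H3K9me2 passed at no peak of these runs. Its largest changes were 0.38 at peak4439 and 0.43 at peak3577 (limma adjusted p = 0.23 and 0.138). Over the 37 peaks in runs of 3 or more the median H3K9me2 change was 0.05, against 0.11 over the 407 peaks that stood alone.

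**Figure D3:**
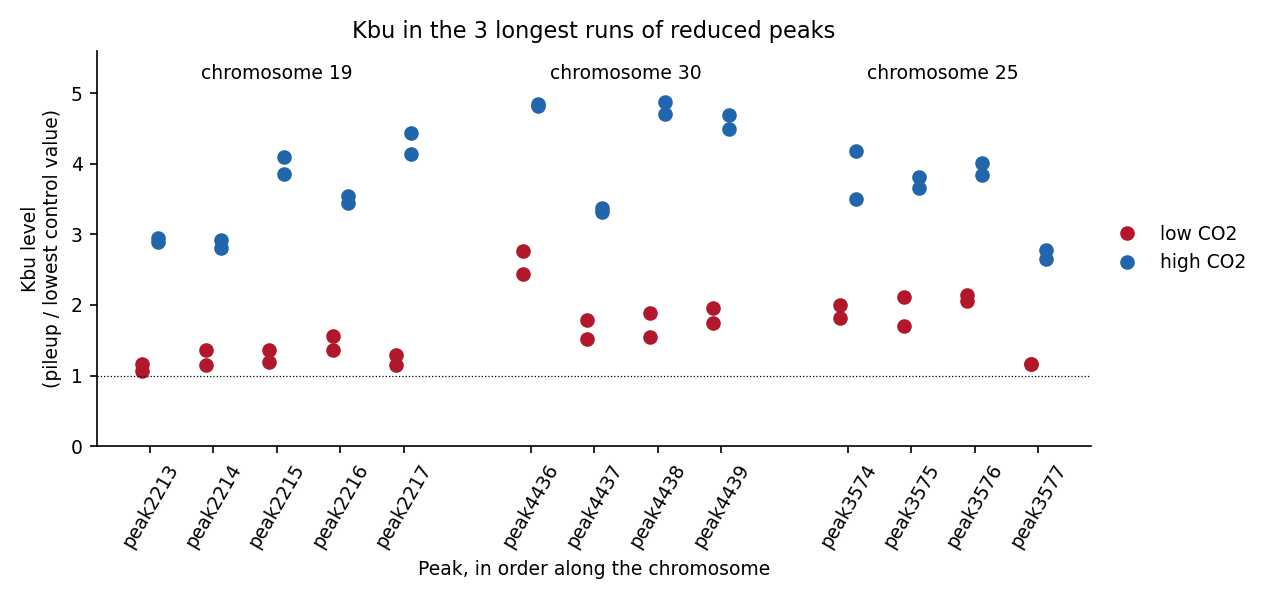
Kbu level of each peak in the 3 longest runs of consecutive reduced peaks, in order along chromosomes 19, 30 and 25, with the 2 low-CO2 libraries (red) left of the 2 high-CO2 libraries (blue); the dotted line is a level of 1. The low-CO2 points of the chromosome 19 run all lie between 1.06 and 1.57, and no low-CO2 point reaches the high-CO2 points of its peak.

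Reduced peaks were more frequent toward the chromosome ends. Distance was counted from the nearer of the first and the last peak of each chromosome, since chromosome lengths were not used here. Within 200 kb of such an outermost peak 229 of 1351 mid-level peaks were reduced (17.0%), against 291 of 3005 farther away (9.68%). By bins the share was 18.3% under 50 kb, 15% from 50 to 100 kb, 17.2% from 100 to 200 kb, 10.0% from 200 to 400 kb and 9.30% beyond, so the step lay near 200 kb, a limit set after these values were seen. The share was higher within 200 kb on 24 of the 30 chromosomes and lower on 6. It was 17.2% within and 9.95% farther on chromosomes 1 to 10, 17.2% and 9.04% on chromosomes 11 to 20, and 16.5% and 10.1% on chromosomes 21 to 30. It also remained without chromosomes 6 and 30 (15.7% within and 9.36% farther) and under each of the 8 other forms of the rule tried. The low-CO2 background at mid-level peaks was lower near the ends, with medians of 3.37 times its lowest value within 200 kb and 3.58 times farther away, and its part in this was not tested.

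**Figure D4:**
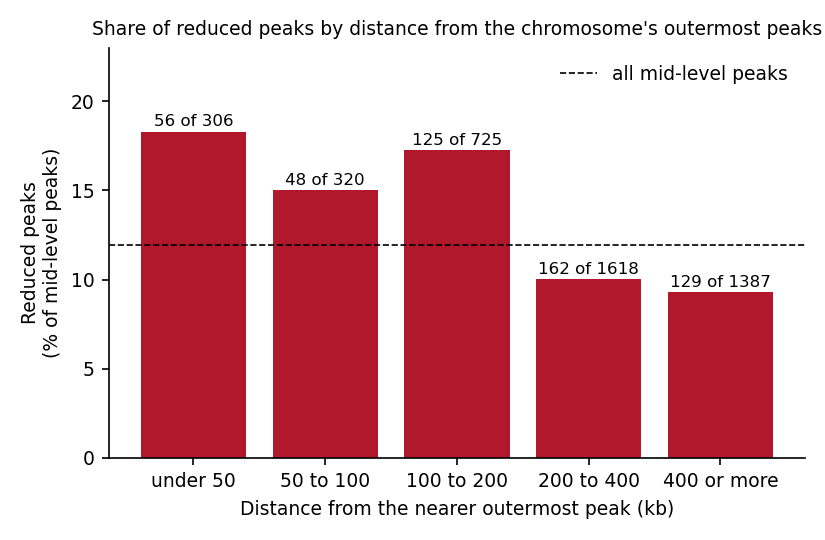
Share of mid-level peaks that were reduced, in percent, by distance in kb from the nearer outermost peak of the chromosome, with the number of reduced among mid-level peaks above each bar; the dashed line is the share over all mid-level peaks, 11.9%. The 3 bins under 200 kb are at 15% to 18.3% and the 2 beyond at 10.0% and 9.30%.

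Within 200 kb of the outermost peaks a reduced peak was followed by another in 38 of 226 cases (16.8%), against 9.87% after the other mid-level peaks there. Farther away it was followed by another in 26 of 291 cases (8.93%, exact binomial interval 5.92% to 12.8%), against 6.85% after other mid-level peaks. Farther in, the share after the other mid-level peaks was thus within the counting interval of the share after reduced peaks. Whether the share differs between ends and interior beyond the higher density of reduced peaks at the ends was not tested. H3K9me2 did not set the ends apart among the reduced peaks, with median log2 changes of 0.09 within 200 kb and 0.12 farther away.

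Chromosomes differed in their share of reduced peaks. Chromosomes 30, 6 and 20 had the highest shares, with 14 of 54 mid-level peaks (25.9%), 39 of 176 (22.2%) and 21 of 110 (19.1%). Chromosomes 14, 12 and 7 had the lowest, with 8 of 131 (6.11%), 12 of 181 (6.63%) and 16 of 201 (7.96%). Chromosomes 30 and 6 stayed the 2 highest under all 8 other forms of the rule, while chromosome 20 ranked from 3 to 15. The lowest moved more: of 30 chromosomes, chromosome 14 ranked from 23 to 30, chromosome 12 from 24 to 30 and chromosome 7 from 21 to 30. Without any 1 Kbu library chromosome 6 was at 21.6% to 24.9% and chromosome 30 at 26.8% to 27.8%. Chromosome 30 is the one with the fewest peaks, so its share rests on few. The median Kbu ratio over all mid-level peaks was 0.637 on chromosome 30 and 0.677 on chromosome 6, against 0.698 over all chromosomes. The median low-CO2 background at their mid-level peaks was 3.67 times its lowest on chromosome 30 and 3.49 on chromosome 6, against 3.52 over all chromosomes, and its part in these shares was not tested.

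**Figure D5:**
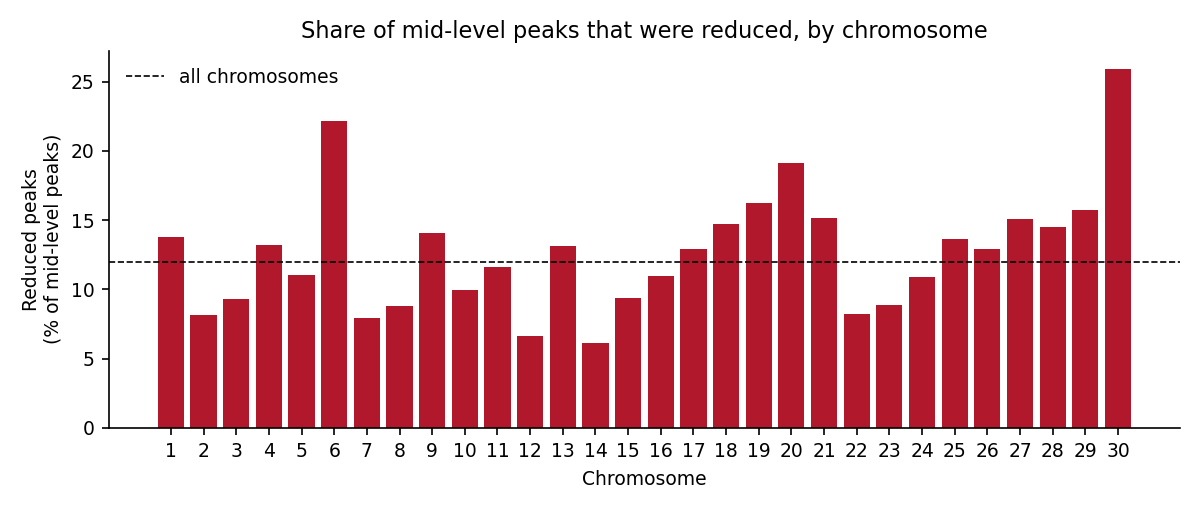
Share of mid-level peaks that were reduced, in percent, on each of the 30 chromosomes; the dashed line is the share over all chromosomes, 11.9%. Chromosomes 30 (25.9%) and 6 (22.2%) stand highest and chromosome 14 (6.11%) lowest.

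On chromosome 6 the share was high at the ends and farther in. Within 200 kb of its outermost peaks 40% of the mid-level peaks were reduced, and farther in 16.9% were, which is still above the 9.68% of all chromosomes at that distance. With its peaks split in order into 3 stretches of about equal number, the shares were 20.3%, 18.6% and 29.2%. It carried 3 of the 11 runs of 3 or more. The one with the lowest mean ratio, 0.427, held peak5373 to peak5375 in 8141 bp (1322747 to 1330888). On chromosome 30 the shares were 34.2% of 38 mid-level peaks within 200 kb and 6.25% of only 16 farther in. By stretch they were 29.4%, 23.8% and 25.0%. Its peaks span 707 to 497949, so most of that span lies within 200 kb of an outermost peak. On chromosome 19 the shares were 32.6% within and 5.88% farther. The median H3K9me2 change of the reduced peaks was 0.07 on chromosome 6, 0.11 on chromosome 30 and 0.03 on chromosome 19, against 0.11 over all reduced peaks.

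The share of reduced peaks also varied with width and high-CO2 level within the limits of the rule. Their median width was 1004.5 bp (quartiles 790 and 1164 bp), against 1041.5 bp for the other mid-level peaks. The share that was reduced was 9.08% to 14.4% over 6 width classes, highest among mid-level peaks of 750 to 900 bp. It was 13.2% at a high-CO2 Kbu level of 2 to 2.5, 9.65% at 2.5 to 3 and 16.8% at 4.5 to 5. In each of these width and level classes the median H3K9me2 change was lower at the reduced peaks than at the other mid-level peaks. For example, it was 0.08 against 0.15 at 750 to 900 bp, and 0.11 against 0.18 at a Kbu level of 3 to 3.5. By high-CO2 H3K9me2 level this did not hold in every class. Under a level of 1.2 the change was 0.37 at the 25 reduced peaks against 0.34 at the others. It was 0.16 against 0.22 at 1.2 to 1.4, 0.06 against 0.11 at 1.4 to 1.6, and -0.07 against -0.02 above.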

How the data were processed

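The authors deposited, per the file headers, a ChIP pileup signal and a background (lambda) signal for each of 8 libraries at 6185 peaks, and a normalised signal. At every peak this was 10 times the pileup over the local background, cut to a whole number and then divided by a factor of each library. They also deposited a log2 fold change (high over low CO2), a score (stat), p-values and a status per mark. The tools BWA, MACS2, Trim Galore, deepTools and Picard are listed per the submitters' processing notes. Versions, assembly, and the steps of peak calling and merging are not stated in any source used here. No column counts the reads of a peak, and count models were therefore not used. In each library all pileups were multiples of a smallest step, taken here as 1 read at a position, so counting errors cover counting only.

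Levels were pileup over the library's lowest background. H3K9me2 was fitted with limma 3.58.1 (R 4.3.3, mean trend) on log2(level + 0.1) over all peaks, which understates changes of low levels. Other steps used pandas 2.3.3 and SciPy 1.17.1 in Python 3.11.15, with figures in Matplotlib 3.10.9. The peaks and choices were set with earlier results of these data known. Named peaks were the 6 lowest Kbu ratios, 3 peaks on either side of the ratio limit, the 3 longest runs, up to 4 called H3K9me2 changes per direction, and the extremes of background and of chromosome shares. The distance from outermost peaks and its 200 kb limit were added after the data were seen. Genes and sequences at the peaks are not analysed here.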

Additional observations from a re-analysis of the deposited data

How the results depend on the processing

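The H3K9me2 counts depended on the quantity compared. Of the 520 reduced peaks 6 were higher and 0 lower. They were 3 and 11 with the pileup scaled to 1 geometric mean, where 246 and 63 of all 6185 peaks were. On the deposited normalised value they were 90 (17.3%) and 69 (13.3%), beside 24.5% and 12.1% of all peaks. On the pileup over local control, which carries the control difference between CO2 levels, they were 0 and 510 (98.1%), beside 1.37% and 93.1% of all peaks. With the geometric-mean scaling 3 of the 6 peaks still passed as higher. On the deposited normalised value 3 of the 6 passed, in either direction. Over local control 4 of the 6 passed, but as lower, since 0 reduced peaks were higher there. At a limma adjusted p under 0.01, 1 reduced peak (0.192%) was higher, beside 2.13% of all peaks. With a replicate block 35 (6.73%) were higher (all 6 among them) and 0 lower, and 912 of all peaks (14.7%) were higher, against 304 without it. Deviations of same-numbered libraries correlated at 0.042 across peaks, and the labels do not say that numbers pair libraries. Leaving out each H3K9me2 library in turn left 0 higher, the lone library being assumed to vary like the others. The median H3K9me2 change was -0.079 at 1 geometric mean and -1.15 over local control, and 0.04 to 0.18 with 1 library left out. The cause was not tested.

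The median Kbu ratio was 0.707 at 1 geometric mean, 0.184 over local control and 0.734 on the deposited normalised value, and 0.481 to 0.499 with 1 library left out. The number of reduced peaks was 265 at a ratio up to 0.5, 952 at 0.6 and 1149 with the 1st percentile of the background in place of its lowest value, and 513 to 635 without 1 library (430 to 491 of the 520 shared). The share followed by a reduced peak was 8.37%, 17.1% and 20.04% under these 3 forms, where all peaks gave 4.29%, 15.4% and 18.6%. It was 16.7% counting mid-level neighbours only, 16.8% within 200 kb of an outermost peak, 8.93% farther away, and 11.03% to 12.96% without 1 library (7.77% to 9.74% after the other mid-level peaks). At ratios up to 0.5 and 0.6 the share within 200 kb was 9.47% and 28.0%, on chromosome 6 15.3% and 32.4%, and on chromosome 30 12.96% and 40.7%. The forms with a different ratio limit move these shares by their construction. Depth limits H3K9me2 most, at 29 to 67 reads per median reduced peak.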
